A study of Homo sapiens with 6 samples.

Results

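The genes described here are the developmental transcription factors of the homeobox (HOX, MEIS, PBX, PAX, LHX, DLX, MSX, IRX and SIX-family genes), SOX, FOX, GATA and TBX families. They were selected by gene symbol alone, with FOXM1 left out, and 128 of the 15794 rows of the authors' deposited table matched. The table compares eHAP cells given guide RNAs against TFDP1 (3 biological replicates, genotype knockout) with control eHAP cells (3 biological replicates, genotype wild-type, no knockout gene). eHAP is an engineered haploid human line of chronic myeloid leukaemia origin. The protocol, written for all samples, has Cas9-expressing cells take up a plasmid with guides and puromycin resistance, stay in puromycin between 24 and 72 h and be harvested on day 5, and the sources used here do not say what the control plasmid targeted. The protocol describes transfected and drug-selected populations and names no clone, and the share of cells that carried an edited TFDP1 was not analysed here. Poly(A) RNA came from 500000 eHAP cells with 10000 Drosophila S2 cells added as a spike-in.

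For every gene the authors' deposited table holds the log2 fold change of the comparison, the mean level in log2 CPM (counts scaled to the size of each library), a likelihood ratio and an adjusted p. Values per sample were not analysed here, so no spread between replicates and no depth of a library can be shown. The authors' likelihood ratio test, made with edgeR, is the test of a difference between the groups throughout. Its p is no measure of the spread between replicates of a gene. The standard errors (SE) and 95% intervals below are approximate and were derived from the fold change and its likelihood ratio. TFDP1, which encodes the DP1 partner of E2F factors, is listed at 1.17 on the log2 scale (SE 0.0323, adjusted p = 1.08e-283, 226 CPM). The sources used here do not say which group is the numerator, so whether a gene was higher or lower in the knockout samples is unknown. A gene is called positive where its fold change has the sign of TFDP1 and negative where it has the opposite sign. A gene passed where the authors' adjusted p was under 0.05.

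Homeobox genes encode factors that bind DNA through a homeodomain, and the HOX genes among them lie in clusters whose order along the chromosome follows the order of their domains along the body axis. SOX factors bind through an HMG box, FOX factors through a forkhead domain, GATA factors through zinc fingers and TBX factors through a T-box. In embryos these families set cell identity and position, and many of their genes are kept silent by Polycomb complexes in cells that do not use them. E2F-DP dimers are best known as regulators of cell cycle genes, so the comparison shows how far developmental factors differed beside that programme.

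Of the 128 members, 25 were positive, 22 were negative and 81 did not pass. The called share was 36.7%, against 39.5% of all 15794 rows, and by sign the members had 19.5% positive and 17.2% negative against 17.3% and 22.2% of all rows. These shares lie close to the background. The members' median was -0.003 on the log2 scale, against -0.025 for all rows, and 64 members lay above 0 and 64 below. The changes were small: the median over the 47 called members was 1.33-fold, against 1.26-fold over all called rows. Of the 128 members 12 were called and reached 1.5-fold, and 9.33% of all rows did. A change of at least 2-fold that passed was seen in 3 members, HOXC5, TBX6 and FOXP2, against 4.43% of all rows.

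The balance of signs moved with the scaling. Positive genes made up 53.2% of the called members as deposited, against 43.9% of all called rows. After re-centring on the median of 77 ribosomal protein genes, 36 members were positive and 16 negative, with 26.8% and 16.1% of all rows. Positive genes then made up 69.2% of the called members, against 62.5% of all called rows. After re-centring on the median gene there were 27 and 19, with 20.4% and 20.5% of all rows (58.7% of called members positive, against 49.9% of called rows). With trends on length and GC removed there were 31 and 17, with 15.9% and 22.6% of the rows that could be corrected. Of the called members 64.6% were then positive, against 41.3% of the called rows. At an adjusted p of 0.01 the counts were 23 and 18, with 13.1% and 17.4% of all rows, and with p adjusted over the 15794 rows alone 27 and 23, with 17.8% and 22.8%. Among the 104 members at or above 1 CPM, 26 and 22 passed with p adjusted over that class, in which 21.5% and 26.1% of all rows did. Requiring 1.5-fold left 8 positive and 4 negative members, with 2.48% and 6.85% of all rows (66.7% of called members positive, against 26.6% of called rows).

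The share of genes that passed followed the level. Of 41 members at or above the median level of all rows (23.5 CPM), 53.7% passed, against 51.9% of the 7897 rows at that level. Between 1 CPM and that median, 36.5% of 63 members passed, against 35.4% of 5052 rows. In that class 20.6% of the members were positive, against 12.9% of all rows, and 15.9% were negative, against 22.5%. Below 1 CPM the share was 8.33% of 24 members, against 12.7% of 2845 rows. Few reads lie behind values in this last class, and a missed threshold there does not show that a gene did not differ.

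**Figure D1:**
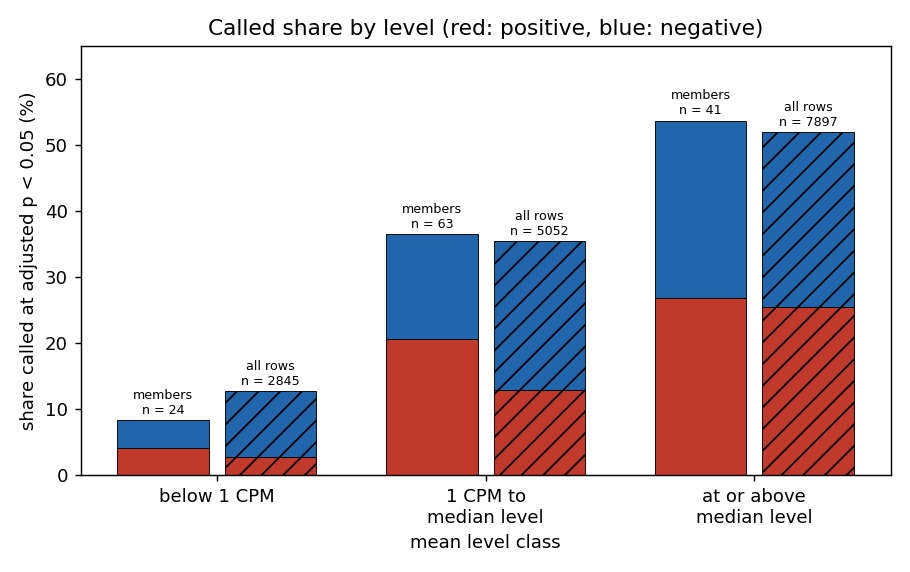
Share of genes (%) that passed an adjusted p of 0.05 in 3 classes of mean level, for the 128 members (plain bars) and for all rows (hatched bars), split into positive (red) and negative (blue). At or above the median level 53.7% of members passed, against 51.9% of all rows.

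**Figure D2:**
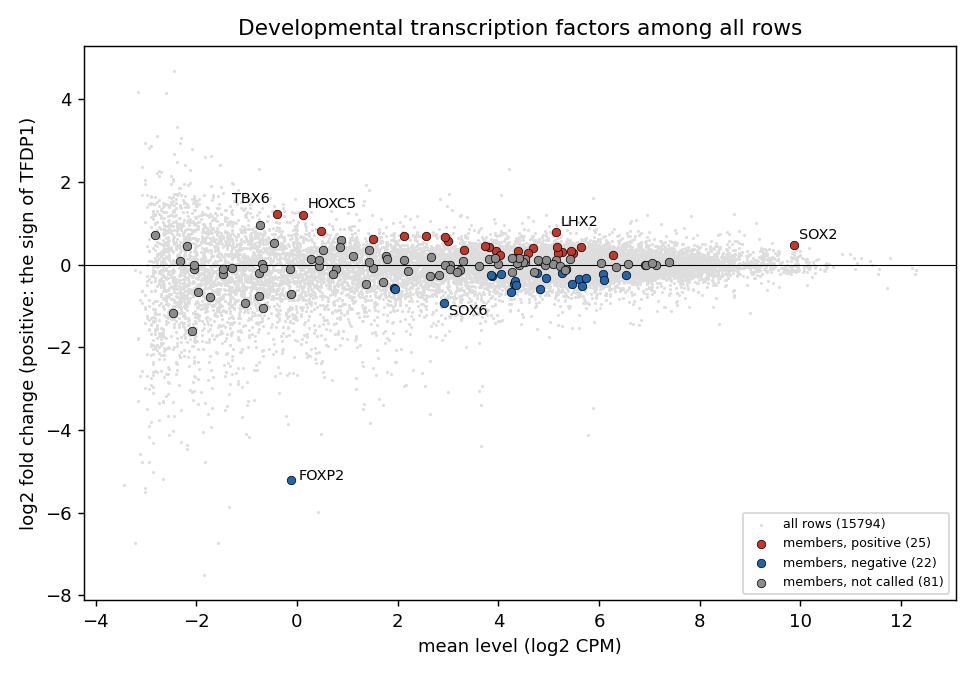
Log2 fold change against mean level (log2 CPM) for all 15794 rows (grey) and the 128 members, coloured by call. SOX2 stands apart by its level of 939 CPM, and FOXP2 by its fold change of -5.21.

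The members were measured at very different levels. SOX2, a pluripotency and neural progenitor factor, was far above the rest with 374 CPM per kb of its longest transcript. The next members on that scale were TBX1 at 44.6, SOX21 at 34.5, FOXK2 at 31.8 and SOX12 at 30.2 CPM per kb. Read levels, which also depend on transcript length, ranged from 0.142 CPM in SOX3 to 939 CPM in SOX2, with a median of 13.6 CPM against 23.5 CPM over all rows.

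Promoter windows of RefSeq on GRCh38.p14, running from 250 bases before to 50 bases after 1 start site per gene, were matched by symbol for 83 of the 128 members. They were searched on both strands for the E2F letters TTTGGCGC, TTTCCCGC, TTTCGCGC and TTTGCCGC and for the cell cycle element TTTGAA. An E2F match lay in 2 of the 83 member windows (2.41%), those of FOXJ3 and SIX4, against 5.19% of the 11251 windows of genes with a row and 3.33% of all 27305 windows. TTTGAA lay in 13.3% of the member windows, against 9.79% of the windows of genes with a row and 15.4% of all windows. TTTGAA is part of none of the 4 E2F words, and a gene can have other start sites. The windows below are the E2F matches and 3 genes that the results turn on: SOX2 and LHX2, which had the smallest p of all members, and FOXP2, which had the largest fold change. Capitals mark the searched letters, with TTTGAA read as TTCAAA where the match is on the other strand.
SOX2 (chr3:181711675-181711974, plus strand): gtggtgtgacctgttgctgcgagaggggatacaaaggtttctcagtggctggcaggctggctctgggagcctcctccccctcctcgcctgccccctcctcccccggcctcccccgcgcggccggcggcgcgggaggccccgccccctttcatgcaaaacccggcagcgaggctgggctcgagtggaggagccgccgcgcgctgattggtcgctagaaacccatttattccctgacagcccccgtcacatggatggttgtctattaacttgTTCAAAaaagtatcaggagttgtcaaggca
LHX2 (chr9:124011518-124011817, plus strand): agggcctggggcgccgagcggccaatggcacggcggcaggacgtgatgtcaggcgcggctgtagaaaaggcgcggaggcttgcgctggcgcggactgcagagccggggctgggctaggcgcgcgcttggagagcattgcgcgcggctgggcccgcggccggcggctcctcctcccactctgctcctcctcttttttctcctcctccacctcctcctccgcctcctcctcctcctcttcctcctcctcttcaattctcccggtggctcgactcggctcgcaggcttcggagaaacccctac
FOXP2 (chr7:114414565-114414864, plus strand): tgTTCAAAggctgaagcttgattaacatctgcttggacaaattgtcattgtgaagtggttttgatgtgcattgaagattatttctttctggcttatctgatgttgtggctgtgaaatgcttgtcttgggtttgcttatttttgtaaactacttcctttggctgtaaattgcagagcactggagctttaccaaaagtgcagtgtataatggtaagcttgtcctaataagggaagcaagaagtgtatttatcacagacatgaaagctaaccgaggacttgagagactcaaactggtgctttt
FOXJ3 (chr1:42335831-42336130, minus strand): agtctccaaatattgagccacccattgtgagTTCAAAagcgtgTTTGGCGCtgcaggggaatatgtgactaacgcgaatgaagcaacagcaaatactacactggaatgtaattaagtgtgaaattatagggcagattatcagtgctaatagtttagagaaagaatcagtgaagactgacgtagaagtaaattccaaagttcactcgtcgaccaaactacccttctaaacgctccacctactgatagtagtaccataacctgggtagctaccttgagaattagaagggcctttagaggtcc
SIX4 (chr14:60724302-60724601, minus strand): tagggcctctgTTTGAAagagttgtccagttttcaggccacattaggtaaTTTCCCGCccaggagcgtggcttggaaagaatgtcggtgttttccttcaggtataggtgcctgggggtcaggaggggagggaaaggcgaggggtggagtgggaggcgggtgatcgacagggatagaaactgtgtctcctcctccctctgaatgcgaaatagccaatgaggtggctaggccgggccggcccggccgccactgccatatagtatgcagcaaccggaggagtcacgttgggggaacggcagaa
The windows of SOX2 and LHX2 hold 20 and 30 CG pairs, and that of FOXP2 holds 1. The FOXP2 window, from 114414565, lies inside its gene model, which runs from 114086327 to 114693772. The LHX2 window, from 124011518, also lies inside its gene model, which runs from 124001670 to 124033301. For FOXP2 and LHX2 the first start site of the gene model was therefore not searched, and the CG pairs there were not counted. Of the 2 genes with E2F letters, FOXJ3 was positive and SIX4 did not pass, as given below. The letters are a description of these windows and do not show binding.

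The 34 HOX genes with a row gave 8 positive, 2 negative and 24 uncalled genes, a called share of 29.4% against 39.5% of all rows. By sign, 23.5% were positive and 5.88% negative, against 17.3% and 22.2% of all rows. Counts by cluster and family below stand beside these shares of all rows. The clusters differed in their counts, though a difference between clusters was not tested. At an unadjusted p under 0.05 the authors' test gave 3324 positive and 4146 negative of all 15794 rows, the base for such counts below. HOXA (chromosome 7) had 5 positive and 0 negative of 11 genes, with a median log2 fold change of 0.34. Its counts at that unadjusted threshold were 6 positive and 0 negative. The positive genes were HOXA13 (0.41, SE 0.081, adjusted p = 2.85e-06, 35.9 CPM), HOXA10 (0.34, SE 0.083), HOXA5 (0.36, SE 0.115), HOXA11 (0.27, SE 0.069) and HOXA7 (0.22, SE 0.092, adjusted p = 0.0473) in the authors' deposited table. HOXA10, HOXA11 and HOXA13 belong to the posterior groups that pattern limbs and the genital tract, and HOXA5 and HOXA7 to the middle of the cluster. The neighbour HOXA9 had 0.15 (adjusted p = 0.178) and did not pass as deposited, but did after ribosomal re-centring. HOXA7 did not pass at an adjusted p of 0.01.

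Neighbouring transcripts limit some of these values. Reads from opposite strands cannot be told apart where strand was not used in counting, and the sources used here do not state its use. GENCODE 29 places 62.5% of the exonic bases of HOXA7 under exons of HOXA-AS3 and 31.1% of those of HOXA11 under HOXA11-AS, and 16.4% of those of HOXA10 under HOXA10-AS. HOXA11-AS itself had a log2 fold change of -0.24 (adjusted p = 0.0526), with the sign opposite to that of HOXA11. HOXA-AS3 had 0.33 (SE 0.253, adjusted p = 0.347). HOXA5 shares no exonic bases with another gene model there. The part of neighbouring transcripts in the values of the HOXA genes was not tested.

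HOXB (chromosome 17) had 2 negative and 0 positive of 8 genes, against 22.2% and 17.3% of all rows. Its median log2 fold change was -0.14. At an unadjusted p under 0.05 the counts were 3 negative and 0 positive. Under both re-centrings and with trends removed the HOXA median stayed above 0 and the HOXB median below 0, the HOXB one between -0.113 and -0.044. HOXB13, a posterior gene known from prostate and tail development, had -0.39 (SE 0.087, adjusted p = 5.99e-05) at 20.2 CPM, and HOXB2, a hindbrain patterning gene, had -0.20 (SE 0.079, adjusted p = 0.0392) in the authors' deposited table. HOXB2 did not pass after either re-centring, under an adjusted p of 0.01 or with length and GC trends removed. HOXB4, known from blood stem cells, had -0.17 (adjusted p = 0.0592) and passed among rows at or above 1 CPM. The antisense transcript HOXB-AS1 had 0.75 (SE 0.262, adjusted p = 0.0155) at 1.73 CPM, and its exons cover 3.72% of those of HOXB2.

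HOXC (chromosome 12) and HOXD (chromosome 2) held 1 and 2 positive genes of 8 and 7, with 0 negative in each. At an unadjusted p under 0.05, HOXC had 1 positive and 2 negative genes and HOXD had 2 and 0. HOXC5 (positions 54032853 to 54035358) was positive at 1.21 (2.31-fold, SE 0.331, adjusted p = 0.00131) with a level of only 1.08 CPM, and 33.9% of its exonic bases are shared with another gene model on its strand. A further gene model of the same symbol shares 305 exonic bases with HOXC4 and with HOXC6. The part of each model in the HOXC5 value was not tested. HOXD8 had 0.66 (SE 0.132, adjusted p = 4.43e-06) at 7.63 CPM and HOXD13, a posterior limb gene, had 0.43 (SE 0.116, adjusted p = 0.00126). HOXC13 (0.07, 22.6 CPM) and HOXC8 (-0.18, 19.4 CPM), with the highest read levels of the HOXC genes, did not pass, with intervals of -0.09 to 0.23 and of -0.35 to -0.01. By position in the clusters, paralog groups 1 to 4 had 0 positive and 1 negative of 10, groups 5 to 8 had 4 and 0 of 10, and groups 9 to 13 had 4 and 1 of 14.

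**Figure D3:**
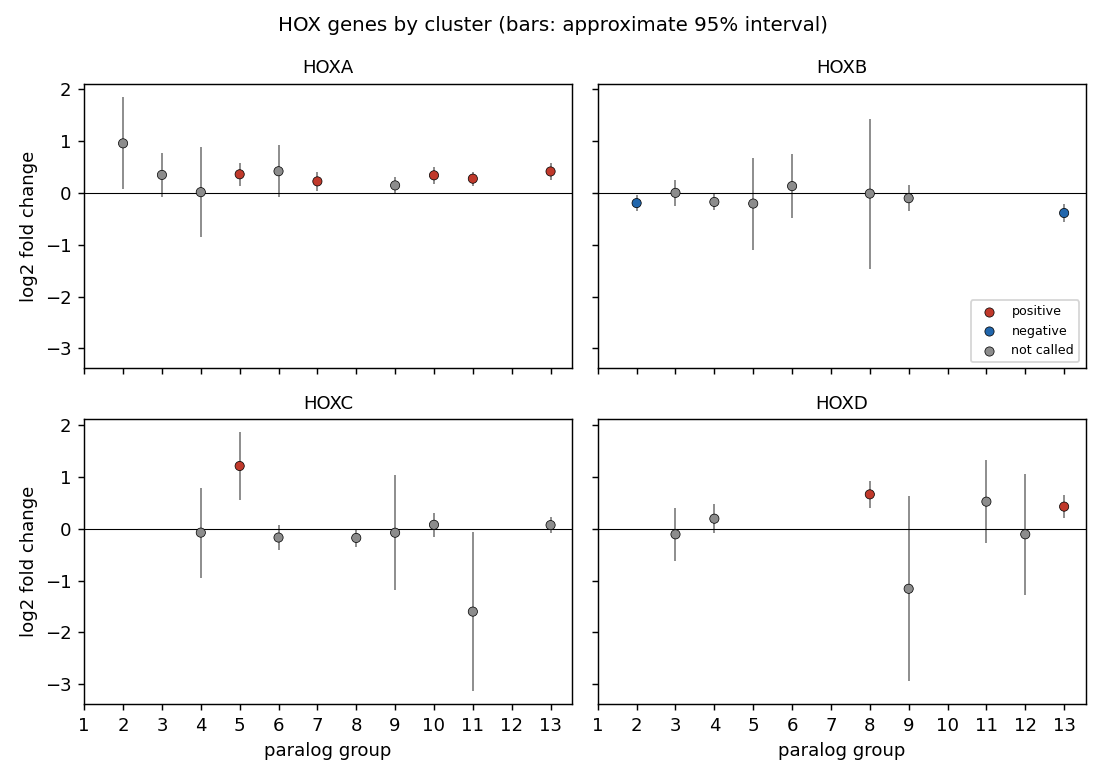
Log2 fold change of the HOX genes described here by paralog group (1 anterior to 13 posterior), 1 panel per cluster, with approximate 95% intervals as bars. HOXA holds 5 positive genes (red) and HOXB 2 negative ones (blue), and intervals are wide for scarce genes such as HOXC11 and HOXD9.

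MEIS and PBX proteins bind DNA together with HOX proteins. Relatives among them went opposite ways. MEIS2 had a log2 fold change of 0.33 (SE 0.067, adjusted p = 9.88e-06) and MEIS3 one of -0.66 (SE 0.088, adjusted p = 1.62e-12) in the authors' deposited table, while MEIS1 had 0.04 (adjusted p = 0.762). PBX2 was negative at -0.37 (SE 0.058, adjusted p = 3.14e-09), while PBX3 at -0.12 (adjusted p = 0.271) and PBX4 at -0.41 (adjusted p = 0.0859) did not pass.

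LHX, SIX-family and PAX genes act mainly in the forming brain, eye, kidney and sense organs. LHX2 (chromosome 9, positions 124001670 to 124033301 of GRCh38, plus strand), which patterns the forebrain and eye, had the smallest p of the homeobox members, with a log2 fold change of 0.79 (1.72-fold, SE 0.071, adjusted p = 2.11e-26) at 35.2 CPM. Its close relative LHX9 had -0.48 (SE 0.084, adjusted p = 9.57e-08), LHX6, a factor of cortical interneurons, had -0.58 (SE 0.181, adjusted p = 0.00553) and LHX1 had -0.01 (adjusted p = 0.909) in the authors' deposited table. The SIX-family genes gave 2 negative and 0 positive of 5, against 22.2% and 17.3% of all rows. The negative genes were SIX3 at -0.31 (adjusted p = 1.05e-06) and SIX5 at -0.21 (adjusted p = 0.00785). At an unadjusted p under 0.05 the counts for the SIX-family genes were 3 and 0. After ribosomal re-centring 1 was positive and 1 negative. SIX5 shares 56.8% of its exonic bases with an opposite-strand gene model and did not pass after re-centring on the median ribosomal protein gene or with trends removed. SIX4, which holds E2F letters, had 0.16 (SE 0.102, adjusted p = 0.251) and passed only after ribosomal re-centring among the settings tried.

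PAX genes gave 2 positive and 0 negative of 5, against 17.3% and 22.2% of all rows. The PAX counts were the same at an unadjusted p under 0.05. The eye factor PAX6 had a log2 fold change of 0.46 (SE 0.102, adjusted p = 4.24e-05) at 13.3 CPM, and PAX9, a factor of teeth and pharynx, had 0.68 (SE 0.168, adjusted p = 2.76e-04) at 4.35 CPM in the authors' deposited table. PAX6 shares 25.2% of its exonic bases with ELP4 on the opposite strand. PAX2, a kidney factor with the highest level of the family per length (8.15 CPM per kb), had 0.0023 (interval -0.17 to 0.17).

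The DLX genes gave 1 positive and 1 negative of 6, the MSX genes 0 and 1 of 2 and the IRX genes 0 and 1 of 5. Of all rows 17.3% were positive and 22.2% negative. DLX1, a forebrain interneuron factor, was positive at 0.33 (SE 0.095, adjusted p = 0.00247) and DLX5, a bone and limb factor, negative at -0.48 (SE 0.105, adjusted p = 4.3e-05), whereas DLX6, the partner of DLX5 in the same gene pair, had -0.02 (adjusted p = 0.894). MSX2 had -0.27 (SE 0.106, adjusted p = 0.0388) and MSX1 had 0.10 (adjusted p = 0.305). The MSX2 call was lost after both re-centrings, with trends removed and at an adjusted p of 0.01, and MSX1 passed as positive after ribosomal re-centring and with trends removed. IRX6 was negative at -0.57 (SE 0.180, adjusted p = 0.00614) with 3.82 CPM, and IRX3 (0.15, adjusted p = 0.172, 20.1 CPM) and IRX5 (0.13, adjusted p = 0.369) did not pass in the authors' deposited table. IRX3 passed as positive after ribosomal re-centring, and both passed with trends removed.

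SOX genes gave 4 positive and 3 negative of 14, and a difference between the subgroups of the family was not tested. SOX2 (chromosome 3, positions 181711924 to 181714436 of GRCh38, plus strand) had a log2 fold change of 0.46 (1.38-fold, SE 0.037, adjusted p = 1.81e-34), the smallest p of all 128 members. Its B1 relative SOX1, also a neural progenitor factor, had 0.69 (SE 0.146, adjusted p = 1.92e-05) at 5.87 CPM in the authors' deposited table. SOX3 could not be measured well, with 0.72 (SE 1.05) at 0.142 CPM. In group B2, SOX14 had 0.62 (SE 0.204, adjusted p = 0.00899) at 2.86 CPM and SOX21, at 95.8 CPM, had 0.02 (interval -0.12 to 0.15).

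All 3 group D genes lay below 0. SOX6, a factor of muscle, cartilage and red cells, had -0.93 (1.91-fold, SE 0.160, adjusted p = 7.61e-08) at 7.57 CPM and SOX13 had -0.52 (SE 0.057, adjusted p = 5.99e-18) at 50.5 CPM. SOX5, the closest relative of SOX6, had -0.29 (SE 0.144, adjusted p = 0.113) and did not pass as deposited, but did with trends removed. In group F, SOX7 was positive at 0.28 (SE 0.079) and SOX18, a blood and lymph vessel factor, negative at -0.26 (SE 0.101, adjusted p = 0.0305) in the authors' deposited table. SOX18 did not pass at an adjusted p of 0.01, after ribosomal re-centring or with trends removed. SOX7 shares 39.4% of its exonic bases with PINX1 on the same strand. The group C genes SOX4 (0.05, 132 CPM) and SOX12 (-0.01, 140 CPM) did not pass, with intervals of -0.04 to 0.14 and of -0.12 to 0.10, and SOX4 passed after ribosomal re-centring.

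**Figure D4:**
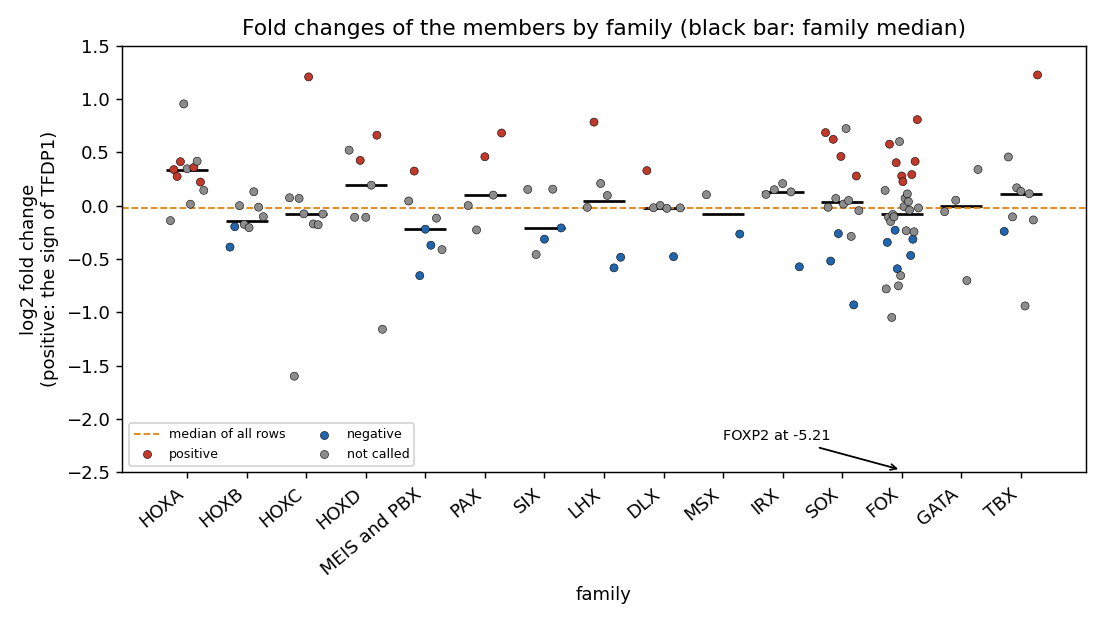
Log2 fold change of each of the 128 members by family, coloured by call, with family medians as black bars and the median of all rows (-0.025) as a dashed line. FOXP2 lies below the drawn range at -5.21, and the HOXA median of 0.34 is the highest of the 15 families shown.

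FOX genes, the largest family with 31 members, gave 7 positive and 6 negative (41.9% called, against 39.5% of all rows). FOXP2 (chromosome 7, positions 114086327 to 114693772 of GRCh38, plus strand), a factor of brain circuits for vocal learning and speech, had a log2 fold change of -5.21 (SE 0.528, interval -6.25 to -4.18, adjusted p = 2.76e-21) in the authors' deposited table. Its mean level was 0.918 CPM. At that level a fold change of this size puts 1 group near 0, where the fitted value depends on the prior count added in the fit, so it is no measured ratio. The other FOXP genes did not share this: FOXP1 had 0.42 (SE 0.079, adjusted p = 1.5e-06) at 49.6 CPM, FOXP3 had 0.81 (SE 0.290, adjusted p = 0.0188) at 1.40 CPM and FOXP4 had -0.02 (interval -0.11 to 0.07) at 122 CPM. FOXP3 did not pass at an adjusted p of 0.01.

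The FOXO genes, effectors of insulin and stress signalling, were also split. FOXO1 had -0.47 (SE 0.078, adjusted p = 2.52e-08), FOXO4 had -0.31 (SE 0.073, adjusted p = 1.03e-04) and FOXO3 had 0.29 (SE 0.070, adjusted p = 1.84e-04) in the authors' deposited table. FOXO6 had -0.24 (adjusted p = 0.158). FOXC1, an eye and vessel factor, had -0.34 (adjusted p = 4.93e-05). The 2 FOXF genes, which act in gut and lung mesenchyme, had opposite signs, with FOXF2 at 0.40 (adjusted p = 1.17e-05) and FOXF1 at -0.23 (adjusted p = 0.0388). FOXF1 lost its call after both re-centrings, with trends removed and at an adjusted p of 0.01.

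FOXD2 was positive at 0.58 (SE 0.127, adjusted p = 3.97e-05), as were FOXJ2 at 0.28 (SE 0.066, adjusted p = 1.29e-04) and FOXJ3 at 0.23 (SE 0.061, adjusted p = 0.00119). FOXJ3, whose window above holds E2F letters, did not pass with length and GC trends removed. FOXK2, the FOX gene with the highest level per length (31.8 CPM per kb), had 0.07 (interval -0.01 to 0.15) and FOXA1, a pioneer factor of endoderm, had 0.14 (adjusted p = 0.0562) in the authors' deposited table. FOXA1 passed as positive after both re-centrings, with trends removed, among rows at or above 1 CPM and with p adjusted over the rows analysed, and FOXK2 passed after ribosomal re-centring.

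**Figure D5:**
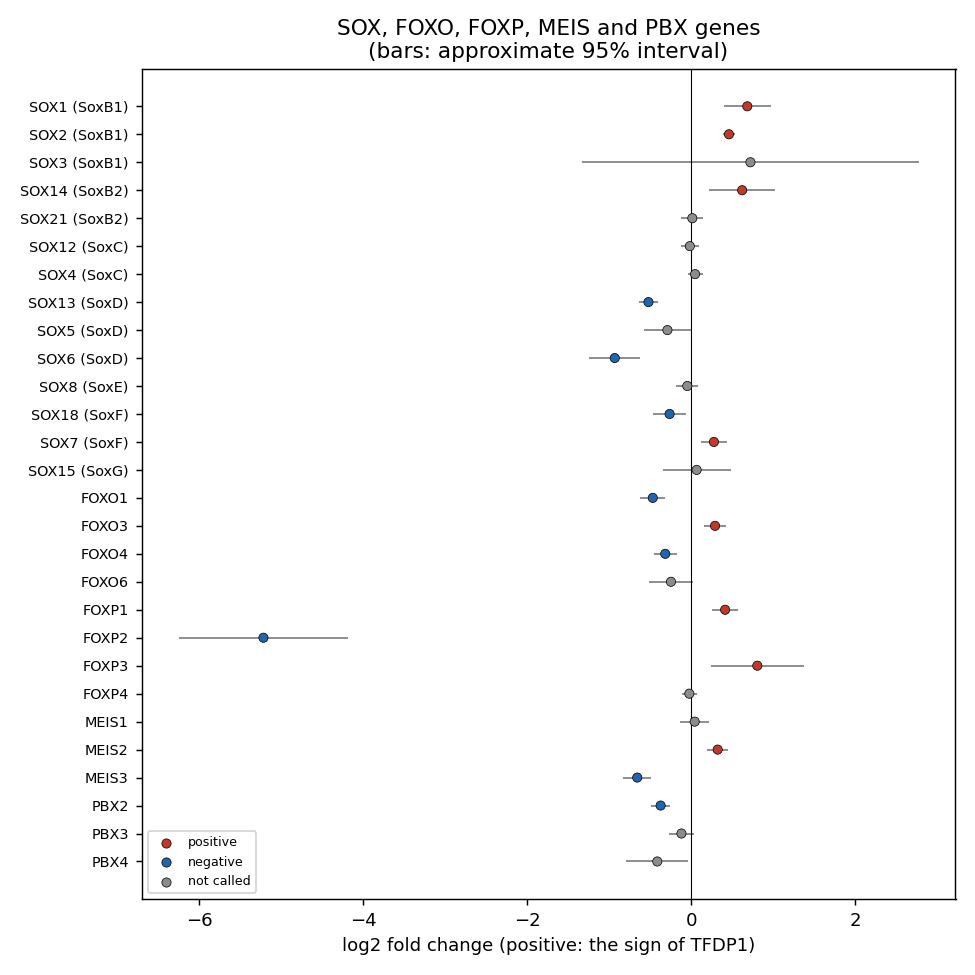
Log2 fold change of the SOX, FOXO, FOXP, MEIS and PBX genes described here with approximate 95% intervals as bars, coloured by call. MEIS2 and MEIS3, FOXO3 and FOXO1, and FOXP1 and FOXP2 lie on opposite sides of 0.

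None of the 4 GATA genes passed. By the authors' edgeR test 0 of 4 were called in either direction, against 39.5% of all rows, and 0 also at an unadjusted p under 0.05. GATA2, a blood progenitor and endothelial factor at 81.0 CPM, had a log2 fold change of -0.06 (interval -0.16 to 0.05) and GATA3, a factor of T cells and breast epithelium, had 0.05 (interval -0.12 to 0.23). GATA5 (-0.70, 0.918 CPM) and GATA6 (0.34, 1.42 CPM) were too scarce for a narrow interval. Of 9 TBX genes, TBX1, a pharyngeal arch factor, had -0.24 (SE 0.052, adjusted p = 2.87e-05) at 93.0 CPM. TBX6 (chromosome 16, positions 30085793 to 30091887, minus strand), a factor of presomitic mesoderm, had 1.23 (2.34-fold, SE 0.397, adjusted p = 0.00798) at 0.761 CPM in the authors' deposited table. TBX1 did not pass with length and GC trends removed. The heart and limb factor TBX5 had -0.13 (adjusted p = 0.107).

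Genes that act on or with these factors were read from lists beside the same table. Polycomb repressive complex 2, which keeps many developmental genes silent, gave 6 positive and 1 negative of 11 genes, and its median was 0.19 on the log2 scale, but 4 positive and 3 negative with length and GC trends removed. The smallest p were those of its methyltransferase EZH2 (1.09, adjusted p = 2.86e-133) and of SUZ12 (0.29). Polycomb repressive complex 1 gave 10 positive and 3 negative of 24 (median 0.10), with SCML1 at 0.61 and BCOR at 0.47. The opposing MLL and trithorax genes gave 7 positive and 3 negative of 16 (median 0.14), with the demethylase KDM6B at -0.67 and PSIP1 at 0.42. After ribosomal re-centring they gave 9 and 1. Partners of the members gave 5 positive and 6 negative of 20 (median -0.05, but 8 and 5 with a median of 0.031 after ribosomal re-centring), with the homeobox gene TGIF1 at -0.55 and the LIM-only gene LMO4 at 0.63. All these values are from the authors' deposited table, in which 17.3% of rows were positive and 22.2% negative and the median row lay at -0.025.

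Retinoic acid signalling, a known regulator of HOX genes in embryos, gave 6 negative and 2 positive of 15 genes, and its median was -0.14 on the log2 scale. For this list and the next 2, all rows had 22.2% negative, 17.3% positive and a median of -0.025. CYP26A1, an enzyme that degrades retinoic acid, had -2.64 (SE 0.200, adjusted p = 8.69e-38) at 3.66 CPM and the reductase gene DHRS3 had -0.92 (SE 0.079, adjusted p = 4.82e-30). Its relative CYP26B1, at the higher level of 20.8 CPM, had 0.15 (adjusted p = 0.21) and did not pass. After ribosomal re-centring the retinoic acid list gave 6 negative and 4 positive genes. Noncoding RNAs of the HOX clusters gave 1 positive and 0 negative of 12, the positive one being HOXB-AS1, with 1 positive and 2 negative at an unadjusted p under 0.05. Other homeobox and lineage factors outside the selected families gave 12 positive and 7 negative of 40 (median 0.09), with CUX1 at 0.53 and OTX2 at 0.30 in the authors' deposited table. With length and GC trends removed they gave 18 positive and 4 negative.

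Markers of cell types were measured beside the members. Of 10 blood markers 4 had a row, with KIT at -0.98 (15.3 CPM) and ITGA2B at 0.49 (5.31 CPM), and CD34 (0.177 CPM) and CD33 (0.292 CPM) near the lower end of the table. The pluripotency list had rows for 4 of 5 markers at uneven levels: POU5F1, which has near-identical copies in the genome that can share its reads, was at 428 CPM with -0.16, DPPA4 at 264 CPM with 0.04, LIN28A at 12.2 CPM with -1.89 and UTF1 at 13.3 CPM with -0.25. The epithelial list had rows for 4 of 6 markers, 3 negative and 0 positive (also at an unadjusted p under 0.05), which ranged from -4.18 to 0.05. The mesenchymal list had rows for 3 of 7 markers, 2 negative and 0 positive (again also at an unadjusted p under 0.05), ranging from -2.66 to -0.23. The neuronal list had rows for 5 of 6 markers, 3 negative and 1 positive. Of all 15794 rows 22.2% were negative and 17.3% positive. At an unadjusted p under 0.05 the authors' test gave 4146 negative and 3324 positive rows. Each marker list has few rows, and a difference between a list and all rows was not tested. In a bulk sample fewer cells of a type and less RNA per cell cannot be told apart, and the part of such markers in the values of the members was not tested.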

How the data were processed

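The labels' protocols describe libraries of polyadenylated RNA from human eHAP cells with a Drosophila spike-in. Per the submitters' processing notes, the tools were Trimmomatic, HISAT2, featureCounts and edgeR, with hg38 and dm6 as builds. The log2 fold changes and log2 CPM levels are as the authors deposited them. The sources used here do not give the library scaling, the numerator or the strand setting. The deposited p-value and FDR belong to the authors' likelihood ratio test, and the likelihood ratio is the authors' score per gene, per the file headers. It was read here as having 1 degree of freedom, which the headers do not state. All 15794 rows carry human symbols.

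No new test across samples was made. Approximate standard errors are the size of the log2 fold change over the root of its likelihood ratio, and intervals are 1.96 of them either way. For the 62 members that the naming rule covers they were 0.853 to 1.45 times the median of rows within 0.5 log2 CPM. Library depths are unknown. The rule names TFDP1, called members that are at or above 1 CPM or past 2-fold, and the 2 members of highest level per family. Some members are counted but not reported here by name. Members named outside the rule were chosen after their values were seen. The members and lists were chosen with earlier results of these data known. Positions, exon overlaps, lengths and GC content came from GENCODE 29 by symbol, for 14777 rows (93.6%) and all 128 members. Trends on length and GC were fitted by lowess (span 0.3, statsmodels 0.14.6), and p-values were recomputed from the approximate standard errors after each shift. That step was tried on simulated data drawn with these same standard errors, and the removal of a GC trend was tried too. The standard errors themselves and the removal of a length trend were not tested that way. Python 3.11.15, pandas 2.3.3, numpy 2.4.6, scipy 1.17.1 and matplotlib 3.10.9 were used. No homeodomain sequences are shown, since no protein table was used here.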

Additional observations from a re-analysis of the deposited data

How the results depend on the processing

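The counts of positive and negative members under each alternative stand beside the deposited ones in the report, and 6 of the 7 alternatives kept both within 1.5 times. Requiring a change of at least 1.5-fold left 8 positive and 4 negative members. No called member took the opposite sign under these settings. Signs turned in uncalled members near 0, of which only those among the 62 that the naming rule covers are listed. Under ribosomal re-centring GATA2 went to 0.0271, FOXP4 to 0.0623, SOX12 to 0.0685, DLX6 to 0.0630 and LHX1 to 0.0677. Under re-centring on the median gene FOXP4 went to 0.0050, SOX12 to 0.0112, DLX6 to 0.0057 and LHX1 to 0.0104, and with trends removed GATA2 went to 0.0582, FOXP4 to 0.0575, SOX12 to 0.0827, DLX6 to 0.0132 and LHX1 to 0.0317. These follow from the shift itself. The HOXC median of -0.077 became 0.006 under ribosomal re-centring and 0.004 with trends removed. No paired analysis was possible because values per sample were not analysed here, and for the same reason no replicate could be left out. Depth limits the 24 members below 1 CPM most.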
